A study of Mus musculus with 3 samples.

Results

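Liver sinusoidal endothelial cells were examined in droplet single-cell RNA libraries of primary hepatocyte preparations from wild-type mice. A barcode was taken as such a cell when it had at least 200 detected genes, at most 50% mitochondrial counts, and at least 1 unique molecular identifier (UMI, the tag of 1 captured molecule) in 3 or more of Stab2, Ptprb, Clec4g, Fcgr2b, Kdr, Dnase1l3, Gpr182 and Oit3. This gave 142 endothelial cells among 8674 barcodes that passed the gene and mitochondrial conditions, out of 16918 barcodes in the matrices. The preparations came from mice fed 1 of 3 diets for 12 weeks: a 60% high fat diet supplemented with 0.25% hyodeoxycholic acid, a bile acid (HFD_HDCA), the same high fat diet alone (HFD), or normal diet (ND). Cells were released by collagenase perfusion with the aim of isolating hepatocytes, so endothelial cells are present as a by-product. Each diet had 1 library, and the sources used here do not give the number, age or sex of its mice. There was therefore no replicate check and no test between diets, every interval below covers counting error only, and diet, animal, isolation and library cannot be told apart.

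The sinusoidal endothelium lines the liver's capillaries. Its cells have open pores without a continuous basement membrane, and they clear waste macromolecules from the blood through scavenger receptors. They also secrete signals to hepatocytes, such as Wnt ligands near the central vein and bone morphogenetic proteins that induce the iron hormone hepcidin. In mouse liver their gene expression varies between the portal and central ends of the lobule.

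The HFD_HDCA library held 34 endothelial cells among 3000 retained barcodes (1.13%, exact binomial 95% interval 0.786 to 1.58%). The HFD library held 18 among 2898 (0.621%, interval 0.369 to 0.980%), and the ND library held 90 among 2776 (3.24%, interval 2.61 to 3.97%). The ND interval lay above both others. After each barcode was thinned to 500 UMIs the shares were 1.03% in HFD_HDCA, 0.598% in HFD, where 558 shallower barcodes were left out, and 2.85% in ND. Barcodes that met the same kind of rule for Kupffer cells, the resident liver macrophages, made up 0.867% of HFD_HDCA, 0.587% of HFD and 0.612% of ND barcodes, with intervals that overlapped. These shares describe what survived a hepatocyte isolation, and loss of endothelial cells during it was not tested.

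The matrices held 8753465, 7593447 and 8677998 UMIs in HFD_HDCA, HFD and ND. Endothelial cells had median depths of 848.5, 768 and 1029 UMIs in these libraries, and the other retained barcodes had 1124, 869.5 and 939. Median mitochondrial content was 6.01, 8.14 and 6.13% in the endothelial cells, against 7.42, 12.9 and 11.7% in the other barcodes. The endothelial cells' nuclear-encoded UMIs summed to 33990, 15060 and 98360, so a count of 0 allowed a level of up to 88.3, 199 and 30.5 counts per 1000000 nuclear-encoded UMIs (CPM, at 3 counts). The ND library thus gave the finest resolution and HFD the coarsest. Among all libraries 32 barcode sequences occurred in more than 1 library, and 0 of them marked an endothelial cell in both.

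The markers that defined the cells were found in 52.1% (Oit3, a liver-specific zona pellucida domain protein) to 85.9% (Ptprb, a vascular phosphatase) of them. Of the 142 cells 24 had 4 markers, 26 had 5, 29 had 6, 33 had 7 and 18 had all 8. Just inside the rule stood 12 barcodes with 3 markers and just outside it 10 with 2. The 30 leading genes described below, none of which was used by the rule, summed to 11918 CPM in the barcodes with 3 markers, 16084 CPM in those with 2, 1153 CPM in those with 1 and 70.6 CPM in those with none. At least 3 of these 30 genes were detected in 11 of the 12 barcodes with 3 markers and in 9 of the 10 with 2. The summed level just outside the rule was thus not below that just inside it.

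**Figure D1:**
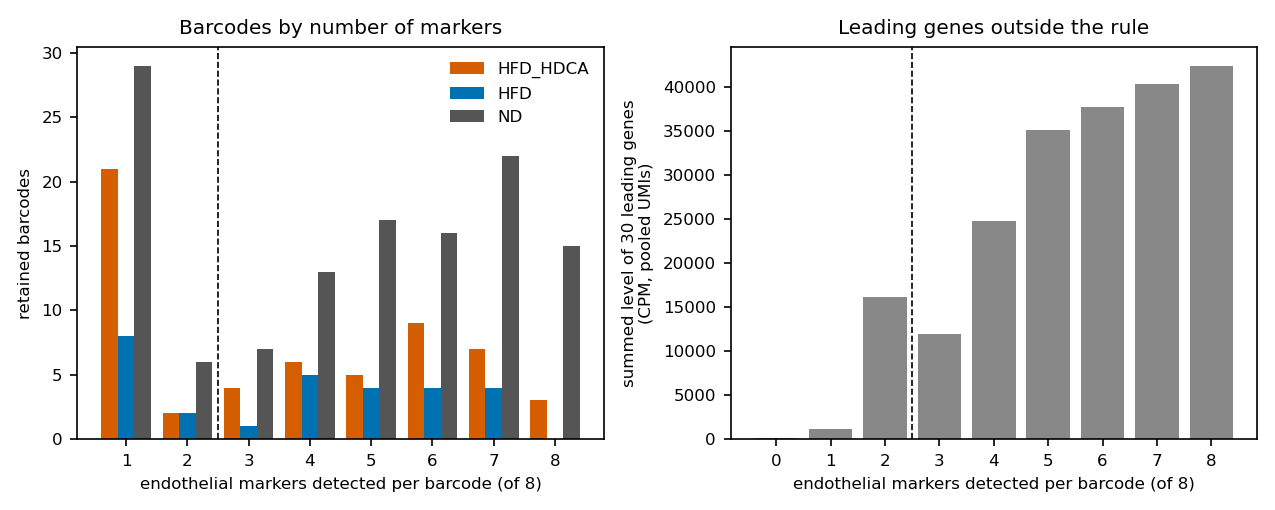
Left, number of retained barcodes by the number of endothelial markers with at least 1 UMI, in bars for HFD_HDCA, HFD and ND (8464 barcodes with no marker are not drawn). Right, summed level of the 30 leading genes outside the rule in pooled UMIs of the same barcodes, in CPM; the dashed line is the rule's threshold, and the barcodes with 2 markers stand at 16084 CPM, above those with 3 at 11918 CPM.

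Markers of other liver cells were summed in the same cells. The Kupffer list of 12 genes reached 109 CPM in endothelial cells, against 115 CPM in the other retained barcodes and 22536 CPM in 59 barcodes that met the Kupffer rule. Of that list Clec4f, Vsig4, Marco, Timd4, Folr2, Adgre1 and Cd68 were at 0, and 13 of its 16 UMIs came from HFD_HDCA, where 1 endothelial cell also met the Kupffer rule. The hepatocyte list held 5.56, 7.40 and 4.01% of the endothelial cells' UMIs in HFD_HDCA, HFD and ND, against 15.7, 13.8 and 14.4% of the other barcodes' UMIs. Hepatocyte transcripts were thus present in the endothelial cells, most in HFD. The list of 10 large vessel markers summed to 224 CPM in endothelial cells and 2.12 CPM in the other barcodes. Vwf, Cd34, Bmx, Gja5, Sele and Edn1 were at 0 of 147410 UMIs, while Ly6a had 12 UMIs, Cdh13 12, Rspo3 8 and Selp 1. The 6 lymphatic markers summed to 970 CPM in endothelial cells and 223 CPM in the others. Of these Flt4 had 104 UMIs in 68 cells, Reln, which is also a stellate marker, 31 and Prox1 8, while Pdpn, Mmrn1 and Ccl21a were at 0. At 0 were also all 8 B cell markers, 8 of 10 T and NK cell markers and 7 of 8 cholangiocyte markers. Summed levels in endothelial cells were 67.8 CPM for neutrophil and monocyte markers, 441 CPM for dendritic cell markers, where Bst2 and Clec9a were the members detected, and 20.4 CPM for erythroid markers.

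Markers of stellate cells, the vitamin A storing pericytes that wrap the sinusoid, were present. The list of 12 summed to 2524 CPM in endothelial cells and 9.81 CPM in the other retained barcodes, with Des and Col1a1 at 0. At least 3 of its genes were detected in 22 of the 142 endothelial cells, 8 in HFD_HDCA, 2 in HFD and 12 in ND, and in 4 other barcodes. These 22 had a median of 1239 UMIs, against 886.5 in the other 120. The proteoglycan gene Dcn had 120 UMIs in the 22 and 21 in the 120 (4161 and 177 CPM). Reln, which encodes the secreted protein reelin, had 31 UMIs in the 22 and 0 in the 120. Endothelial genes were present on both sides. Ehd3 was at 3294 CPM in the 22 and 2825 CPM in the 120, Bmp2 at 1873 and 1720 CPM, Slc43a3 at 867 and 557 CPM, and Plpp1 at 520 and 725 CPM. Whether the 22 barcodes are droplets that hold a pair of cells was not tested.

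**Figure D2:**
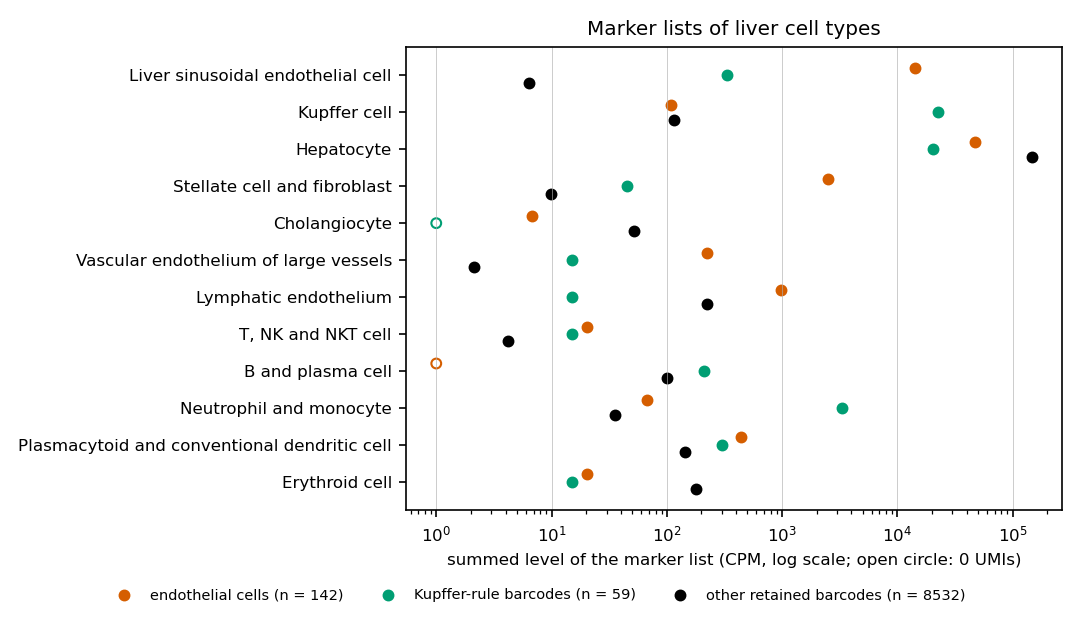
Summed level of each cell type's marker list in CPM on a log axis, for endothelial cells, Kupffer-rule barcodes and all other retained barcodes (which include the Kupffer-rule barcodes); open circles mark 0 UMIs. The stellate list stands at 2524 CPM in endothelial cells and 9.81 CPM in the other barcodes, and the Kupffer list at 109 and 115 CPM.

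The endothelial cells were compared gene by gene with the other retained barcodes, most of which carry hepatocyte genes. Of 1507 genes with at least 20 UMIs in them, markers left out, 445 stood at least 4-fold higher (29.5%) while 14 stood 4-fold or more lower (0.929%), and the median log2 ratio of all 1507 was 0.85. The minimum of 20 UMIs was asked of the endothelial cells only, so genes absent from them could not be counted as lower. The imbalance between higher and lower genes is therefore not read as a result. The cells were chosen from the same counts, so these ratios are a description. Of the 445 genes, 360 were at least 4-fold higher in each of the 3 libraries and 442 were above the other barcodes in each. They held 16.2% of the endothelial cells' UMIs and 1.06% of the others'. Without the ND library, 113 of 389 genes with enough UMIs stood at least 4-fold higher and 0 stood lower by that factor. The 14 lower genes included Cyp2e1 and Serpina1c, which are on the hepatocyte list, as well as Tdo2, Hpx and Slco1b2.

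The 30 leading genes were 71.0 to 5244-fold higher in endothelial cells than in the other barcodes, and the least often detected of them, Dcn, was found in 21.1% of the cells. Ehd3, which encodes a membrane recycling protein of the endocytic pathway, had 430 UMIs and was at 2917 CPM (exact Poisson interval 2648 to 3206) in endothelial cells and 1.90 CPM in the others. By library it was at 3030 CPM in HFD_HDCA, 1859 CPM in HFD and 3040 CPM in ND. Igfbp7, a secreted binder of insulin-like growth factors, was at 2279 CPM (interval 2042 to 2537) in endothelial cells and 1.61 CPM in the others. Bmp2, the ligand that acts on hepatocyte hepcidin, was at 1750 CPM (interval 1543 to 1977) in endothelial cells and 0.59 CPM in the others. Aqp1, a water channel, was at 1560 CPM in endothelial cells and 0.66 CPM in the others. Each of the 30 was at least 4-fold higher in every library.

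Other leading genes fall into familiar endothelial roles. Cell surface and junction proteins included Cdh5, the cadherin of endothelial junctions, Eng, a co-receptor of bone morphogenetic proteins, and Flt4, a receptor of vascular endothelial growth factors. Eng was at 957 CPM in endothelial cells and at 0.15 CPM, 2 UMIs, in the others, a log2 ratio of 12.36 with an interval of 10.79 to 15.73. F8, the gene of clotting factor VIII, was detected in 42.3% of the cells at 638 CPM, against 1.17 CPM in the others. Gpihbp1, which carries lipoprotein lipase to the capillary lumen, was at 794 CPM in endothelial cells and 0.37 CPM in the others. The remaining leading genes were Egfl7, Gatm, Cd55, Plxnc1, Maf, Stab1, Mrc1, Adgrf5, Tspan7, Dcn, Cavin2, Timp3, Sparc, Dab2, Plpp1, Tinagl1, Slc43a3, Cemip2, Pde2a, Ets1 and Adam23. Of these Dcn is a stellate marker, and the cells with 3 or more stellate markers held 120 of its 141 UMIs.

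**Figure D3:**
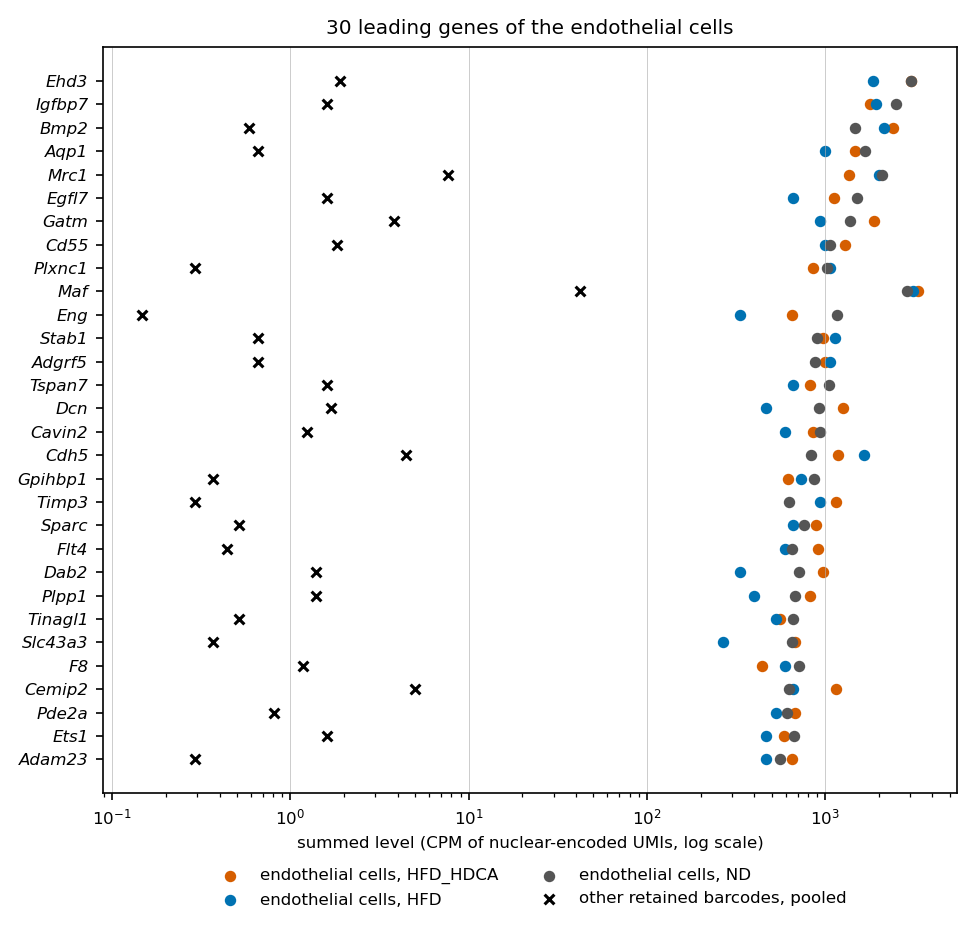
Summed level in CPM, on a log axis, of the 30 leading genes in endothelial cells of HFD_HDCA, HFD and ND (circles) and in all other retained barcodes pooled (crosses). For every gene the 3 circles lie at least 4-fold to the right of the cross, with Ehd3 at 3030, 1859 and 3040 CPM.

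The promoters of the leading genes with an entry in the RefSeq promoter table (GRCm38.p6) were read to show what kind of start site these genes have. Each window runs from 250 bases before to 50 after the start, and is printed on the gene's strand with CG dinucleotides in capitals. Ehd3 lies at chr17:73804591-73804890 on the plus strand, Igfbp7 at chr5:77407996-77408295 on the minus strand and Aqp1 at chr6:55336049-55336348 on the plus strand.
Ehd3: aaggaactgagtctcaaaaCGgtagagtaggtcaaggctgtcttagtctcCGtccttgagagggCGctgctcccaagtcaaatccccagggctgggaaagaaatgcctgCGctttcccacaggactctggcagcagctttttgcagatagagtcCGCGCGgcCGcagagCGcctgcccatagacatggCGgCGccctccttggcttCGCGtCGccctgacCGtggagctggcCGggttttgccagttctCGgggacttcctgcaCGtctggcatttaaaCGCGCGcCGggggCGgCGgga
Igfbp7: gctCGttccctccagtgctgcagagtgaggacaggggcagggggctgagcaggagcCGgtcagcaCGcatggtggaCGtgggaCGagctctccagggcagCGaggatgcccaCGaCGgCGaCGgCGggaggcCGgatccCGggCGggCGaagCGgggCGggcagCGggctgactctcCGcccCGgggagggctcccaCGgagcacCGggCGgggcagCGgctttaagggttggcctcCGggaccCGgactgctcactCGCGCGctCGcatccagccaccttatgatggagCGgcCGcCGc
Aqp1: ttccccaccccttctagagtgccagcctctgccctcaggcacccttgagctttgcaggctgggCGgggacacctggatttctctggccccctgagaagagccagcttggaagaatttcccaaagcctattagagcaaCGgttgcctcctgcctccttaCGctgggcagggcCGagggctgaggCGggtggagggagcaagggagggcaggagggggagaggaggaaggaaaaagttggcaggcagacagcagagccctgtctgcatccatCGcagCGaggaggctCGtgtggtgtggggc
The Ehd3 window holds 24 CG dinucleotides, the Igfbp7 window 33 and the Aqp1 window 8. The median was 8.5 over 30 windows of 21 leading genes, 21 over 473 windows of the genes at least 4-fold higher, and 7 over all 32851 windows. The letters AGATAA, known to be bound by Gata transcription factors, were found on either strand in 6.67% of the leading genes' windows, 5.92% of the windows of the 4-fold higher genes and 11.2% of all windows. CCGGAA, bound by factors of the Ets family, was found in 3.33, 14.2 and 14.9% of them, and TATAAA in 0, 9.73 and 13.6%. Each motif was searched on its own, and no match was found in the 3 windows printed.

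The gene lists that follow count genes with at least 20 UMIs in endothelial cells, a filter that favours genes that are high there, and over all genes that passed it 29.5% were at least 4-fold higher. Of 30 genes of scavenging and endocytosis 21 were measured, 4 were at 0 UMIs, and 11 of those measured stood at least 4-fold higher in endothelial cells, with a median log2 ratio of 2.02. Against Kupffer-rule barcodes, 2 genes of this list were at least 4-fold higher and 1 was lower by that factor. Over all measured genes 18.1% were higher and 1.53% lower there. Most of the list was thus not particular to endothelial cells. Mrc1, the mannose receptor, was detected in 77.5% of the cells, at 1913 CPM against 7.69 CPM in the others. Stab1, a scavenger receptor that takes up modified lipoproteins, was found in 55.6% of the cells, at 943 CPM in endothelial cells and 0.66 CPM in the others. Dab2, a clathrin adaptor found in 45.8% of the cells, was at 733 CPM in endothelial cells and 1.39 CPM in the others. Of the lysosomal genes in this list, Lgmn, a protease gene, was at 488 CPM in endothelial cells and 36.5 CPM in the others. Lamp2 was at 1194 CPM in endothelial cells and 792 CPM in the others, and the protease gene Ctsl at 1024 and 473 CPM.

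Of 30 transcription factors 17 were measured, and these 17 were at least 4-fold higher, with a median log2 ratio of 6.35. The other 13 had fewer than 20 UMIs in endothelial cells, 2 of them 0. Against Kupffer-rule barcodes, 10 genes of this list were at least 4-fold higher and 0 were lower by that factor. Maf, a factor of sinusoidal endothelial identity, was found in 90.8% of the cells, at 3005 CPM against 42.3 CPM in the others. Ets1 was at 631 CPM in endothelial cells and 1.61 CPM in the others, and the shear-responsive Klf2 at 475 and 6.44 CPM. Klf2 was higher in Kupffer-rule barcodes, at 860 CPM. Its log2 ratio of endothelial cells to these was -0.85 (interval -1.37 to -0.32). Of 29 pan-endothelial genes listed among the features, 27 were measured and 25 were at least 4-fold higher, with a median log2 ratio of 9.84. The measured exceptions were Ece1, the endothelin-converting enzyme, and S1pr1, a sphingosine 1-phosphate receptor.

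Of 30 angiocrine and signalling genes 9 were measured and 8 were at least 4-fold higher, with a median log2 ratio of 8.98. The secreted ligand Bmp6 was at 163 CPM in endothelial cells and 0.29 CPM in the others. The central vein ligand Wnt2 was at 149 CPM in endothelial cells and 0.22 CPM, 3 UMIs, in the others, with a log2 interval of 7.67 to 11.79, while Wnt9b was at 0 UMIs. Igf1, a hepatocyte product, went the other way, at 292 CPM in endothelial cells and 1029 CPM in the others. Among 24 genes of flow, nitric oxide and clotting, 10 were measured and 9 were at least 4-fold higher, with a median log2 ratio of 7.54. Tfpi, an inhibitor of the clotting cascade, was at 217 CPM in endothelial cells and 0.66 CPM in the others. Nos3, the endothelial nitric oxide synthase, had 3 UMIs in all endothelial cells.

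Among 24 genes of capillarisation and matrix, 11 were measured and 10 were at least 4-fold higher, with a median log2 ratio of 9.0. Sparc and Timp3 were each at 780 CPM in endothelial cells, against 0.51 and 0.29 CPM in the others. Cd34 and Vwf, classical signs of capillarised sinusoids, were at 0 UMIs in every library. Of 24 lipid handling genes 7 were measured and 5 were at least 4-fold higher, with a median log2 ratio of 5.64. Cd36, a fatty acid transporter, was at 319 CPM in endothelial cells and 79.5 CPM in the others, and Fabp4, a fatty acid binding protein, at 305 and 0.73 CPM.

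Receptors through which bile acids and related signals are known to act mostly fell below the minimum of 20 UMIs. Of 16 genes, 2 were measured, where 1507 of all 32285 features were, so the list is not short of measured genes. Neither was 4-fold apart from the other barcodes. S1pr1 had 37 UMIs, at 251 CPM in endothelial cells and 78.2 CPM in the others, and the glucocorticoid receptor Nr3c1 had 29, at 197 and 106 CPM. The bile acid receptor gene Nr1h4 had 7 UMIs, at 47.5 CPM in endothelial cells and 83.1 CPM in the others. Gpbar1, the surface bile acid receptor, was at 0 UMIs, as were Vdr, Glp1r, Klb and Chrm2. A count of 0 in 147410 UMIs allows a level of up to 20.4 CPM, so for these genes a level below that cannot be told from absence.

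Against 59 Kupffer-rule barcodes, the nearest non-parenchymal cells in the libraries, 273 of the 1507 genes were at least 4-fold higher in endothelial cells (18.1%) and 23 were lower by that factor (1.53%). The 1 cell that met both rules was left out here, which left 141. Of the 30 leading genes 25 were at least 4-fold higher than in Kupffer-rule barcodes, and 11 were at 0 UMIs there. Bmp2 was at least 38.7-fold higher and Tspan7 at least 21.4-fold higher, against a limit of 3 UMIs in the Kupffer-rule barcodes. Mrc1, which macrophages share, was at 1917 CPM in endothelial cells and 1404 CPM in Kupffer-rule barcodes. Cdh5 was at 996 CPM in endothelial cells and 845 CPM in Kupffer-rule barcodes, a log2 ratio of 0.23 with an interval of -0.22 to 0.71. The protease gene Lgmn was lower in endothelial cells, at 464 CPM against 4453 CPM in Kupffer-rule barcodes.

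Genes that mark lobule position were counted together within the endothelial cells. Of 11 pericentral genes 6 were measured, and of 11 periportal genes 4 were, each at least 4-fold higher than in the other barcodes. Kit, a pericentral receptor tyrosine kinase, was detected in 9 of 13 cells with Wnt2 and in 39 of 129 without it. Ltbp4, a periportal gene whose product binds latent TGF-beta, was detected in 12 of 17 cells with the scavenger receptor gene Msr1 and in 34 of 125 without it. Ltbp4 was also detected in 15 of 30 cells with the stellate marker Dcn and in 31 of 112 without it, with median depths of 1239 and 881 UMIs. Across the ends of the lobule, Ltbp4 was detected in 15 of 48 cells with Kit and in 31 of 94 without it. It was also detected in 5 of 13 cells with Wnt2 and in 41 of 129 without it. Kit was detected in 6 of 17 cells with Msr1 and in 42 of 125 without it, and Msr1 in 1 of 13 cells with Wnt2 and in 16 of 129 without it. Genes of opposite ends were thus not clearly separated. These counts pool the libraries. Within ND, Kit was detected in 5 of 9 cells with Wnt2 and in 29 of 81 without it, and Ltbp4 in 12 of 16 cells with Msr1 and in 28 of 74 without it. Ltbp4 was detected in 14 of 34 ND cells with Kit and in 26 of 56 without it. In HFD_HDCA, Kit was detected in 4 of 4 cells with Wnt2 and in 8 of 30 without it, while Msr1 was found in 1 cell there and in 0 HFD cells. In HFD_HDCA, cells with Wnt2 had a median of 1538.5 UMIs and those without it 848.5, against 1088 and 1017 in ND. Within ND, cells with Msr1 had a median of 1135 UMIs and those without it 993.5. The part of depth in these counts was not tested.

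Between diets, the 445 genes at least 4-fold higher in endothelial cells were compared. This keeps most hepatocyte transcripts out of the genes compared, but not out of the UMI totals used for scaling. The 445 genes held 16.8% of the endothelial cells' UMIs in HFD_HDCA, 13.0% in HFD and 16.5% in ND. A lower share lowers their ratios together, and its part in the splits below was not tested. Genes passed this filter on UMIs pooled over the libraries, and ND gave 98360 of these 147410, so the filter favoured genes high in ND. In HFD against ND, 36 of the 445 had a ratio at least 2-fold higher (8.09%) and 106 one at least 2-fold lower (23.8%), with a median log2 ratio of -0.26. In the 18 HFD cells 1 UMI was worth 66.4 CPM and 41 of the genes had 0 UMIs. With those genes at the limit of 3 counts the median was -0.10. The interval left out 0 for 27 genes (6.07%), 9 higher (2.02%) and 18 lower (4.04%), where a 95% interval leaves out the true value for up to 5% of genes by counting error alone. Without the cells that had 3 or more stellate markers, 19 of 323 genes were at least 2-fold higher. For HFD_HDCA against HFD, 117 genes were at least 2-fold higher (26.3%) and 30 lower (6.74%), with a median log2 ratio of 0.35, or 0.18 with the genes at 0 in HFD at that limit. Intervals left out 0 for 25 genes (5.62%), 22 higher (4.94%) and 3 lower (0.674%). For HFD_HDCA against ND, 34 were higher (7.64%) and 33 lower (7.42%), with a median of 0.08. Intervals left out 0 for 43 genes (9.66%), 25 higher (5.62%) and 18 lower (4.04%). These comparisons share libraries. Scaled by the median of ratios, which left 330 genes at least 4-fold higher in endothelial cells, the split was 46 higher and 52 lower in HFD against ND, 53 and 37 in HFD_HDCA against HFD, and 36 and 24 in HFD_HDCA against ND. With a minimum of 1 UMI, 1524 of 3420 genes were at least 2-fold higher and 342 lower in HFD against ND, so the direction of the split in HFD moved with these choices.

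Of the genes that respond to blood flow, Klf2 had a higher level with both high fat diets than with ND, and Klf4 with HFD_HDCA. Of 9 measured and endothelial-enriched genes, 4 were at least 2-fold higher in HFD than in ND (background 8.09%), with a median log2 ratio of 0.99, and 5 in HFD_HDCA than in ND (background 7.64%), with a median of 1.22. None was 2-fold lower in either. With Ece1, which was measured but not endothelial-enriched, 1 of 10 was at least 2-fold lower in HFD than in ND, and the medians were 0.61 for HFD and 0.62 for HFD_HDCA against ND. Without the cells that had 3 or more stellate markers, 3 of 6 were at least 2-fold higher in HFD_HDCA than in ND. Klf2, a transcription factor induced by shear stress, had 24 UMIs in HFD_HDCA, 16 in HFD and 30 in ND, which is 706, 1062 and 305 CPM. The log2 ratio was 1.82 for HFD against ND (interval 0.83 to 2.72) and 1.22 for HFD_HDCA against ND (interval 0.37 to 2.03). After thinning to 500 UMIs, Klf2 was detected in 26.5% of HFD_HDCA, 37.5% of HFD and 11.1% of ND cells, the same order as its CPM. In the other barcodes Klf2 was at 8.68, 5.91 and 3.83 CPM, and in the Kupffer-rule barcodes of all libraries it was at 860 CPM.

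The related factor Klf4 was at 294 CPM in HFD_HDCA, 266 CPM in HFD and 71.2 CPM in ND. Its log2 ratio was 2.02 for HFD_HDCA against ND (interval 0.51 to 3.68), and for HFD against ND the interval of -0.32 to 3.88 held 0. Thbd, the anticoagulant receptor thrombomodulin, was at 353 CPM in HFD_HDCA, 398 CPM in HFD and 132 CPM in ND. Its interval was 0.16 to 2.67 for HFD_HDCA against ND, and -0.09 to 3.09 for HFD against ND. The matrix protease gene Adamts1 had 17, 5 and 8 UMIs, at 500 CPM in HFD_HDCA, 332 CPM in HFD and 81.3 CPM in ND, with a log2 ratio against ND of 2.57 for HFD_HDCA (interval 1.33 to 4.04) and 2.08 for HFD (interval 0.07 to 3.82). Its 5 UMIs in HFD lay in 3 cells, and after thinning to 500 UMIs Adamts1 was detected in 23.5% of HFD_HDCA, 0% of HFD and 6.67% of ND cells, so no order between HFD and ND is read from it. Thinned detection was 17.6, 6.25 and 2.22% for Klf4 and 11.8, 6.25 and 6.67% for Thbd in HFD_HDCA, HFD and ND. For Klf4 and Thbd the interval of HFD against ND held 0, so for these too no order between HFD and ND is read. Cav2, a caveolin gene named after its values were seen, was the other gene at least 2-fold higher in HFD_HDCA, at 294 CPM against 112 CPM in ND.

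Early response genes, which are known to be induced quickly by stress or handling, moved with these. They are not endothelial-enriched as a group, with a median log2 ratio of -0.33 against the other barcodes. Of 11 measured, 7 were at least 2-fold higher in HFD than in ND (background over all measured genes 13.4%), with a median of 1.37, and 3 in HFD_HDCA than in ND (background 7.43%). None was 2-fold lower than ND in either (backgrounds 13.8 and 8.43%). Fos, a part of the AP-1 factor, had 29, 8 and 3 UMIs, at 853 CPM in HFD_HDCA, 531 CPM in HFD and 30.5 CPM in ND. In the other barcodes Fos was at 705, 475 and 187 CPM, the same order. Egr1 was at 235 CPM in HFD_HDCA, 1129 CPM in HFD and 153 CPM in ND. Nfkbia, an inhibitor of NF-kappaB, was at 118 CPM in HFD_HDCA, 730 CPM in HFD and 224 CPM in ND. The part of this response in the values of Klf2 and Klf4 was not tested.

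Periportal genes gave a mixed picture. Of the 4 measured, 2 were at least 2-fold lower than ND both in HFD and in HFD_HDCA (backgrounds 23.8 and 7.42%). These 2, Ltbp4 and Msr1, passed the minimum for measured genes, set on UMIs pooled over the libraries, only through their ND UMIs. The filter thus favoured genes high in ND, for this list and for the backgrounds. The count of lower genes is therefore not read as a lowering of periportal genes. The median log2 ratio was -1.38 for HFD against ND, or -0.07 with Msr1, at 0 in HFD, at its limit, and -1.16 for HFD_HDCA against ND. Ltbp4 had 5 UMIs in HFD_HDCA, 1 in HFD and 61 in ND, at 147, 66.4 and 620 CPM. Its log2 ratio was -1.95 for HFD_HDCA against ND (interval -3.75 to -0.78) and -2.65 for HFD against ND (interval -8.55 to -0.69). It was detected in 5 of 34 HFD_HDCA, 1 of 18 HFD and 40 of 90 ND cells. Msr1 had 1, 0 and 19 UMIs, with a log2 ratio of -2.17 for HFD_HDCA against ND (interval -8.09 to -0.06). The limit of 199 CPM for Msr1 in HFD lies above its 193 CPM in ND, so no fold is given. Adam23, an adhesion protein gene, was at 647, 465 and 559 CPM and Ntn4, a netrin gene, at 147, 199 and 203 CPM in HFD_HDCA, HFD and ND, and their intervals held 0 in each comparison. Without the cells with 3 or more stellate markers, 2 periportal genes were measured and 1 was at least 2-fold lower in HFD_HDCA than in ND.

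Among 6 pericentral genes, 3 were at least 2-fold higher in HFD_HDCA than in HFD (background 26.3%), with a median log2 ratio of 0.85. Of these Pcdh17 and Wnt2 were at 0 UMIs in HFD, and with both at their limit the median was -0.26. Against ND, 1 was higher and 3 lower in HFD (backgrounds 8.09 and 23.8%), and 2 were higher and 0 lower in HFD_HDCA (backgrounds 7.64 and 7.42%). Kit was at 618 CPM in HFD_HDCA, 133 CPM in HFD and 447 CPM in ND, with 21, 2 and 44 UMIs. Its log2 ratio was 1.93 for HFD_HDCA against HFD (interval 0.19 to 5.35), and against ND the interval of -0.36 to 1.25 held 0. Pcdh17, a protocadherin gene, had 11, 0 and 15 UMIs, which is at least 1.62-fold higher in HFD_HDCA than in HFD. Wnt2 had 5, 0 and 17 UMIs. Bmp2 was at 2412 CPM in HFD_HDCA, 2125 CPM in HFD and 1464 CPM in ND. Its log2 ratio was 0.72 for HFD_HDCA against ND (interval 0.31 to 1.12), under 2-fold, and 0.55 for HFD against ND (interval -0.06 to 1.10).

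**Figure D4:**
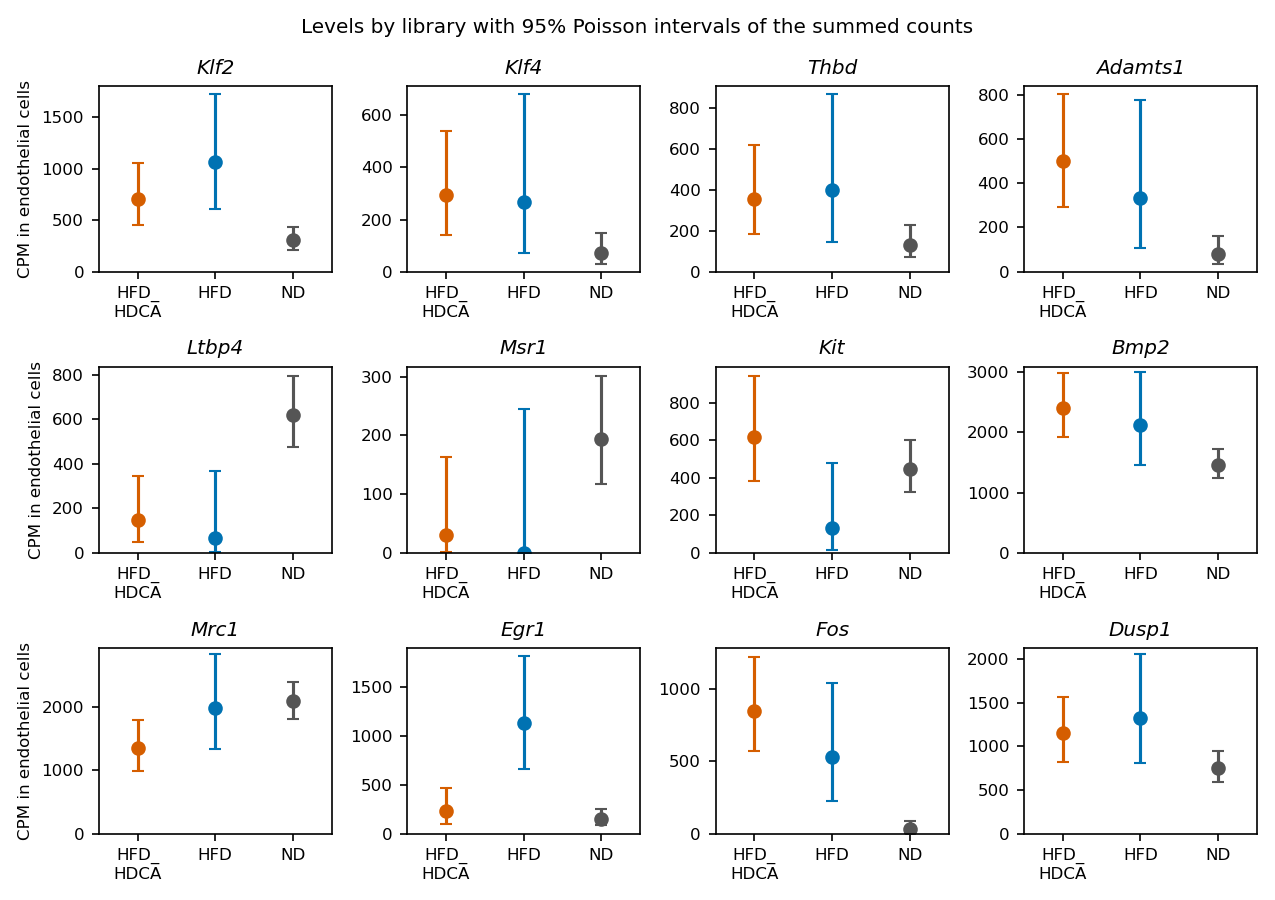
Level in endothelial cells of HFD_HDCA, HFD and ND for 12 genes, as CPM (points) with 95% exact Poisson intervals of the summed counts (bars). Klf2 stands at 706, 1062 and 305 CPM and Ltbp4 at 147, 66.4 and 620 CPM.

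Among genes chosen for the size of their difference, Mmrn2, an endothelial matrix glycoprotein gene, was at 382 CPM in HFD_HDCA, 598 CPM in HFD and 244 CPM in ND. Rhob, a small GTPase gene of endosomes, was at 618, 730 and 285 CPM, and Mylip, the ligase that degrades the LDL receptor, at 588, 996 and 447 CPM in the same order. Tmcc3 and Btbd7 completed the higher genes of HFD against ND. Lower in HFD than in ND were Tm4sf1, a tetraspanin-like gene of endothelial cells with 12, 0 and 43 UMIs in HFD_HDCA, HFD and ND, and Msn, which links actin to the membrane, with 12, 0 and 34. Tm4sf1 was at least 2.19-fold lower and Msn at least 1.74-fold lower in HFD than in ND. The lymphatic and endothelial factor gene Sox18 had 8, 0 and 33 UMIs and the adaptor gene Ap1b1 6, 0 and 26. Cd59a, a complement inhibitor gene, had 13, 1 and 60 UMIs, Lgmn 19, 1 and 52, and Arhgap23 6, 1 and 42. The HFD intervals against ND were -8.53 to -0.67 for Cd59a, -8.32 to -0.45 for Lgmn and -8.02 to -0.13 for Arhgap23 on the log2 scale. Tm4sf1, Msn, Sox18, Ap1b1, Cd59a and Arhgap23 passed the minimum for measured genes, set on pooled UMIs, only through their ND UMIs. The filter thus favoured high ND values for them. Their folds and intervals are therefore not read as a lowering in HFD.

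With hyodeoxycholic acid added to the high fat diet, the genes with the highest ratios to HFD had 0 or 1 UMI in HFD, which the low depth of the HFD cells and the choice by ratio favour. Tm4sf1 and Msn were each at least 1.77-fold higher in HFD_HDCA than in HFD, and Map4k4, a kinase gene, and Cotl1, an actin-binding protein gene, each at least 1.62-fold higher. Lgmn, at 559 CPM in HFD_HDCA and 66.4 CPM in HFD, had a log2 ratio of 2.53 (interval 0.42 to 8.45). Actn4, an actin crosslinker, had 18 UMIs in HFD_HDCA, 1 in HFD and 41 in ND, and Arhgap29 had 17, 1 and 32. Against ND these genes varied, with Lgmn at 559 CPM in HFD_HDCA and 529 CPM in ND, Arhgap29 at 500 and 325 CPM, and Map4k4 at 324 and 153 CPM. Lower in HFD_HDCA than in HFD were Nfkbia, with a log2 ratio of -2.53 (interval -4.74 to -0.88), and Lyve1, the hyaluronan receptor gene, with 2 UMIs in HFD_HDCA, 6 in HFD and 13 in ND and an interval of -6.10 to -0.28. Serinc3, a membrane protein gene, was at 1589 CPM in HFD_HDCA, 2523 CPM in HFD and 1759 CPM in ND, a log2 ratio of -0.67 for HFD_HDCA against HFD (interval -1.29 to -0.03).

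Of 11 scavenging genes 2 were at least 2-fold higher and 3 lower in HFD than in ND (backgrounds 8.09 and 23.8%), and 0 higher and 1 lower in HFD_HDCA than in ND (backgrounds 7.64 and 7.42%). Mrc1 was at 1353 CPM in HFD_HDCA, 1992 CPM in HFD and 2094 CPM in ND, with a log2 ratio of -0.62 for HFD_HDCA against ND (interval -1.12 to -0.16). Of 17 transcription factors 3 were at least 2-fold higher and 4 lower in HFD than in ND, and 4 higher and 0 lower in HFD_HDCA than in ND, where the same backgrounds apply and 4 of 17 lower in HFD is near its background. Of 25 pan-endothelial genes 2 were at least 2-fold higher and 7 lower in HFD than in ND (backgrounds 8.09 and 23.8%). With the median of ratios scaling 3 were lower, and without cells above 3 times the median depth 4 were. Eng was at 647 CPM in HFD_HDCA, 332 CPM in HFD and 1159 CPM in ND, with a log2 ratio of -1.67 for HFD against ND (interval -3.45 to -0.54). Cdh5 went the other way, at 1177, 1660 and 834 CPM, with a log2 ratio of 1.01 (interval 0.29 to 1.65). Of 10 matrix genes 0 were at least 2-fold higher and 2 lower in HFD than in ND, near the backgrounds of 8.09 and 23.8%, and 0 were either way in HFD_HDCA against ND. Among 5 lipid genes Cd36 was at 441 CPM in HFD_HDCA, 531 CPM in HFD and 244 CPM in ND, with intervals that held 0. Abcg1, a cholesterol exporter gene, was at 324, 66.4 and 122 CPM, with a log2 ratio of 1.41 for HFD_HDCA against ND (interval 0.08 to 2.72). Of 23 ribosomal protein genes 0 were at least 2-fold higher and 6 lower in HFD than in ND (backgrounds over all measured genes 13.4 and 13.8%), with a median log2 ratio of -0.68.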

How the data were processed

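Wild-type mouse hepatocyte preparations were profiled with a droplet 3′ kit, 1 library per diet. The authors deposited UMI counts per gene and barcode. Cell Ranger 5.0.0 wrote them, per the file headers, with genome build mm10 per the submitters' processing notes. How barcodes were chosen for the matrices is not given in the sources used here. No counts were normalised before deposit, per the file headers and the whole-number values.

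Cells were selected by the marker rule given above. The Kupffer rule asked for at least 3 of 9 markers. Counts were summed over cells and expressed per 1000000 nuclear-encoded UMIs. Each count had 0.5 added before ratios were formed, with exact conditional binomial intervals; levels have exact Poisson and shares exact binomial intervals, all at 95%. Genes with at least 20 UMIs in endothelial cells were measured. A call was 4-fold between cells and 2-fold between diets. Leading genes were the 30 highest ratios after adding 20 CPM, among genes found in at least 10% of cells, leaving out the 8 markers and mitochondrial, ribosomal, unnamed-model, Xist and Y-linked genes. Diet genes were up to 8 highest and 8 lowest whose interval left out 0 in HFD against ND and HFD_HDCA against HFD. From the gene lists, up to 6 by UMIs and 2 by ratio were named. The cells, markers and 15 lists were chosen with earlier results of these data known. No doublet caller was run and doublets were not removed; deep cells and cells with other cells' markers were left out as alternatives. Chromosomes came from GENCODE M21 and promoters from RefSeq. Software was Python 3.11.15, numpy 2.4.6, pandas 2.3.3 and scipy 1.17.1.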

Additional observations from a re-analysis of the deposited data

How the results depend on the processing

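The 27 ratios of diet genes named for their size kept their direction and stayed within their intervals under 9 alternatives each, 243 values in all. These genes were chosen because their intervals left out 0, and the alternatives reuse largely the same cells and counts. Many of the intervals are also wide, as for Cd59a at -8.53 to -0.67. The outcome was therefore close to fixed and is no check of a difference between diets. No paired analysis was possible because each diet had 1 library. Of the 142 cells, 7 were deeper than 3 times the median. With barcodes of at least 500 genes the ND share of endothelial cells was 5.48%. Depth limited HFD most, where 1 UMI was 66.4 CPM.

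Genes at least 4-fold higher than in the other barcodes, 445 as reported, numbered 141 with at least 50 UMIs in the cells and 3420 with at least 1, and 113 to 410 when each library was left out. Those at least 4-fold lower, 14 as reported, numbered 41 with at least 4 markers, 6 and 138 with at least 50 and at least 1 UMI, 180 with median of ratios scaling, 40 with equal weight per barcode, 54 without the deepest cells, 5 without cells with stellate markers, 3 with equal weight per library, and 0 to 20 when each library was left out. The minimums of 50 UMIs and 1 UMI also changed the number of genes compared, to 464 and 10696. The cause of these changes in the counts was not tested.

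For HFD against ND, higher genes numbered 22 with at most 20% mitochondrial counts, 4 and 1524 at minimums of 50 UMIs and 1 UMI, 19 without cells with stellate markers and 202 over all measured genes. Lower genes numbered 33, 342 and 208 at the same minimums and over all measured genes, and 52 with median of ratios scaling. For HFD_HDCA against HFD, higher genes numbered 33 and 549 at those minimums, 53 with median of ratios scaling and 257 over all measured genes, and lower genes 3, 1599 and 212, and 17 with 1 added to scaled counts. For HFD_HDCA against ND, higher genes numbered 3, 794 and 112, and lower genes 5, 450 and 127.

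With at least 50 UMIs, flow genes at least 2-fold higher numbered 1 of 2 in HFD and 1 of 2 in HFD_HDCA against ND, periportal genes lower 1 and 1, pan-endothelial genes lower in HFD 4, and early response genes higher 2 in HFD and 1 in HFD_HDCA. With at least 1 UMI, where the same limit applies, 8 flow genes were higher in HFD, and early response genes higher were 13 in HFD and 8 in HFD_HDCA. Pan-endothelial genes lower in HFD were 3 with median of ratios scaling and 4 without the deepest cells. Early response genes higher in HFD_HDCA were 5 with equal weight per barcode. Without cells with stellate markers, an alternative added after seeing the data like the equal library weights and the added count of 1, flow genes higher in HFD_HDCA were 3 and periportal genes lower 1.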

Other observations

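Of 24 antigen presentation genes 5 were measured and 0 were 4-fold apart, with a median log2 ratio of 1.90. B2m, the light chain of class I molecules, was at 3718 CPM in endothelial cells and 2597 CPM in the others, and the class I gene H2-D1 at 1024 and 269 CPM. Class II genes were low in endothelial cells and high in Kupffer-rule barcodes. Cd74, the class II invariant chain, had 9 UMIs in endothelial cells, at 61.1 CPM, or 47.8 CPM without the cell that met both rules, against 2868 CPM in Kupffer-rule barcodes, and H2-Ab1 had 11, at 74.6 and 1238 CPM.

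Of 28 adhesion and chemokine genes 5 were measured and 3 were at least 4-fold higher than in the other barcodes. Cd47, which restrains phagocytes, was at 1187 CPM in endothelial cells and 144 CPM in the others, and Jam2, a junction protein gene, at 176 and 0.29 CPM. Of 28 interferon response genes 4 were measured and 1 was at least 4-fold higher, Ifitm2, an antiviral membrane protein gene, at 1621 CPM in endothelial cells and 204 CPM in the others. None of these 4 enriched genes was 2-fold apart in any diet comparison. All 23 ribosomal protein genes were measured and 0 were 4-fold higher, with a median log2 ratio of 0.63.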
